A study of Homo sapiens with 30 samples.

Results

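The genes described here are the suppressors of cytokine signaling SOCS1 to SOCS7, their relative CISH, and the protein tyrosine phosphatases PTPN1 and PTPN2. They were taken by symbol, under a rule that uses no measured value but was written with earlier results of these data known, and are 10 of 61471 rows in the expression table of each line. Bulk RNA was sequenced from U87-MG (U87) and U251-MG (U251), both human glioblastoma cell lines, in cells without IFN-γ (Untreated), after IFN-γ for 3 days (D3), 14 days (D14) or 28 days (D28), and in cells that received it for 14 days and were then kept without it until day 28 (D28WO). The labels list 30 libraries, 3 per group and line, and all cells carry the label wild type. In U87, D3 and D14 had 2 usable libraries each (replicates 2 and 3), which left 13 libraries of U87 and 15 of U251. The sources disagree on the dose of IFN-γ (10 ng/mL, 1 μg/mL or 1 μL/mL) and on whether Untreated cells were collected on day 3 or at the start. Each line is a single model, and the methods state that neither was authenticated after receipt. In bulk RNA, fewer cells with a transcript and less of it per cell cannot be told apart.

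IFN-γ binds a receptor of IFNGR1 and IFNGR2 chains, on which the kinases JAK1 and JAK2 phosphorylate STAT proteins, and STAT dimers then bind GAS elements in target promoters. SOCS proteins form a feedback arm of this pathway, because several are themselves STAT targets. They hold an SH2 domain that recognizes phosphotyrosine and a SOCS box that recruits a ubiquitin ligase, and SOCS1 and SOCS3 also inhibit JAK kinases directly. PTPN1 (PTP1B) and PTPN2 (TC-PTP) are closely related phosphatases that remove phosphate from JAK kinases. On GRCh38 (GENCODE 44), SOCS3 lies at chr17:78356778-78360077 and CISH at chr3:50606489-50611774 on the minus strand, and SOCS2 at chr12:93569814-93583487, SOCS4 at chr14:55027230-55049489 and SOCS5 at chr2:46698952-46780245 on the plus strand. SOCS6 (chr18:70289045-70330199, plus) and PTPN2 (chr18:12785478-12929643, minus) share a chromosome, as do SOCS7 (chr17:38351844-38405593, plus) and SOCS3, and PTPN1 lies at chr20:50510321-50585241 (plus).

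The libraries were checked against their labels first. Genes above 0 TPM (transcript abundance scaled by length and library total) numbered 24223 to 28649 per library in U87 and 24450 to 30246 in U251. Within U87 the Untreated libraries lay lowest, at 24223 to 25459, and within U251 the Untreated (24450 to 27187) and D28WO (25633 to 26378) libraries lay low. VIM and CD44, which glioblastoma lines express, were at 394 TPM or more in every library of both lines. GFAP, S100B and SOX2, which mark glial cells, were high in U251, whereas in U87 SOX2 did not exceed 0.411 TPM and GFAP did not exceed 19.1 TPM. OLIG2, another glial marker, went the other way, at 3.51 to 32.0 TPM in U87 and at most 1.33 TPM in U251. Of 6 markers of other cell types, CD3E and MS4A1 were at 0 in most libraries. The highest medians were those of EPCAM in U87 (5.93 TPM, range 1.03 to 9.29) and CD14 in U251 (2.31 TPM, range 0.191 to 5.75). The summed level of the 6 moved with the groups. In U251 it was 0.627 to 1.93 TPM in Untreated and 3.00 to 7.83 TPM in the other groups, without overlap. In U87 it was 2.37 to 3.67 TPM in D28WO, the group with the most member calls, and 3.90 to 11.3 TPM in the other groups, also without overlap. Their part in the results was not tested.

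A set of 4 IFN-γ readouts (IRF1, GBP1, CXCL10 and IDO1) did not follow the treatment labels at every time. In U87 all 4 were higher than Untreated at D3, D28 and D28WO, whereas at D14, labelled as treated, none of the 4 passed the test and IDO1 was listed at 0 in both libraries. In U251 all 4 were higher at every time, and their median log2 fold changes were 4.25 (D3), 2.01 (D14), 4.41 (D28) and 4.19 (D28WO). Thus D14 was low and D28WO, labelled as withdrawn, lay near D28 in these readouts. Set directly against D28, 2 of the 4 were lower at D28WO in U251 (median log2 fold change -0.22), beside 18.8% of all genes. In U87, limma called none of the 4 between D28WO and D28. Whether the labels of D14 and D28WO were exchanged was not tested, and the names D14 and D28WO stand for the libraries that carry those labels.

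The 250 bases before the start site are printed for SOCS1 and CISH, the members in which the motifs searched were found and which rose most in U251. RefSeq (GRCh38.p14) gave promoters for 7 of the 10 members, with none for SOCS2, SOCS5 and SOCS7. Each window was searched on both strands for the STAT GAS element TTCNNNGAA and for the core bound by interferon regulatory factors, which is GAAA and GAAA with any 2 bases between them. Capitals mark the matches, and both genes lie on the minus strand, so the sequences read 5′ to 3′ along the gene, at chr16:11256205-11256454 for SOCS1 and chr3:50611775-50612024 for CISH.
SOCS1: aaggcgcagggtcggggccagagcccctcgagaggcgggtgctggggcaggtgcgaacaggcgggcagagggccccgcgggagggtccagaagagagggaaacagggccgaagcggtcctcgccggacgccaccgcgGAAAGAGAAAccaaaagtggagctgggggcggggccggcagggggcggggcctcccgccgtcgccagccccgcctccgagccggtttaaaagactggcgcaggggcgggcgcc
CISH: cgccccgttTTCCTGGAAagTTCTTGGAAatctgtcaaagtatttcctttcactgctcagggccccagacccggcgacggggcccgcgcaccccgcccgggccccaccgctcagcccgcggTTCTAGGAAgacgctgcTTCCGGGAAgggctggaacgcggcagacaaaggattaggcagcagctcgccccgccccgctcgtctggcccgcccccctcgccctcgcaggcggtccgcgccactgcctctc
The SOCS1 window held 1 match to the interferon regulatory factor core, from 113 to 104 bases before the start (positions -113 to -104), and none to the GAS element. The CISH window held 4 GAS matches, which began at positions -241, -230, -129 and -112. Of 35116 windows of the same length in the table, 3.02% held the regulatory factor core and 6.57% at least 1 GAS element, and 5 windows (0.0142%) held 4 or more. The windows listed for SOCS3, SOCS4, SOCS6, PTPN1 and PTPN2 held no match. RefSeq starts differ from the GENCODE gene ends for some of these, so that the PTPN2 window (chr18:12840963-12841212) lies inside the gene and neither SOCS3 window (chr17:78360926-78361175 and chr17:78359668-78359917) adjoins the gene end given above. The bases directly before those ends were not searched. A match is a run of letters and was not tested as a binding site.

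Against Untreated, U251 moved members of the family in both directions. SOCS1 was higher at every time, by 12.7-fold in mean TPM at D3 and 23.3-fold at D28WO, and CISH was higher by 1.85-fold to 2.80-fold, whereas SOCS5 was lower at every time and SOCS2 was lower at D3 and D28. PTPN2 was higher at every time, by 1.24-fold to 1.33-fold. At D3, 4 members passed the test (adjusted p under 0.05) as higher and 4 as lower, where 24.9% and 16% of the 23667 genes tested were called in these directions. At D14, 4 were higher and 1 was lower, beside 13.8% and 7.31% of all genes. At D28, 4 were higher and 4 lower, beside 25.9% and 14.7%. At D28WO, 4 were higher and 1 was lower, beside 14.3% and 13.4%. Counting only changes above 1 on the log2 scale, SOCS1 passed upward at every time, where 9.72%, 4.72%, 11.9% and 4.07% of genes did at D3, D14, D28 and D28WO, CISH passed upward at D28WO, and SOCS5 passed downward at D3 and D28, where 4.55% and 3.35% did. The median log2 fold change of all genes tested was 0.13, 0.10, 0.16 and 0.02 at these times, and that of the members was -0.02, 0.21, 0.08 and 0.11. Without the D14 and D28WO libraries, 7 members were called at D3 and 8 at D28.

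In U87, SOCS1 was 1.90-fold, 1.98-fold and 1.92-fold higher in mean TPM at D3, D28 and D28WO, and SOCS6 was 1.51-fold, 1.27-fold and 2.01-fold higher at the same times. At D3, 3 members were higher and none lower (5 and 1 at an unadjusted p under 0.05), where 12.4% and 4.28% of the 22918 genes tested were called. At D14 limma called none of the 10 (1 higher and 1 lower at an unadjusted p under 0.05), beside 4.14% of genes higher and 1.02% lower. At D28, 3 were higher and 1 lower, beside 17.2% and 6.55%, and at D28WO 6 were higher and 1 lower, beside 28.6% and 13.4%. Of these, SOCS2 at D28WO exceeded 1 on the log2 scale, as did 12.8% of all genes upward. The median log2 fold change of all genes was above 0 in each comparison, at 0.20, 0.15, 0.19 and 0.25, and that of the members was 0.16, 0.09, 0.15 and 0.43. Without D3 replicate 2 the count at D3 was 1, and without the D14 and D28WO libraries it was 2 at D3 and 3 at D28. At D28WO the upward calls of SOCS2, SOCS4, SOCS7 and PTPN2 were lost under quantile normalization. Those of SOCS2, SOCS4 and PTPN2 were lost with the median of all genes subtracted, where PTPN1 was called lower, and those of SOCS2 and PTPN2 with size factors.

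**Figure D1:**
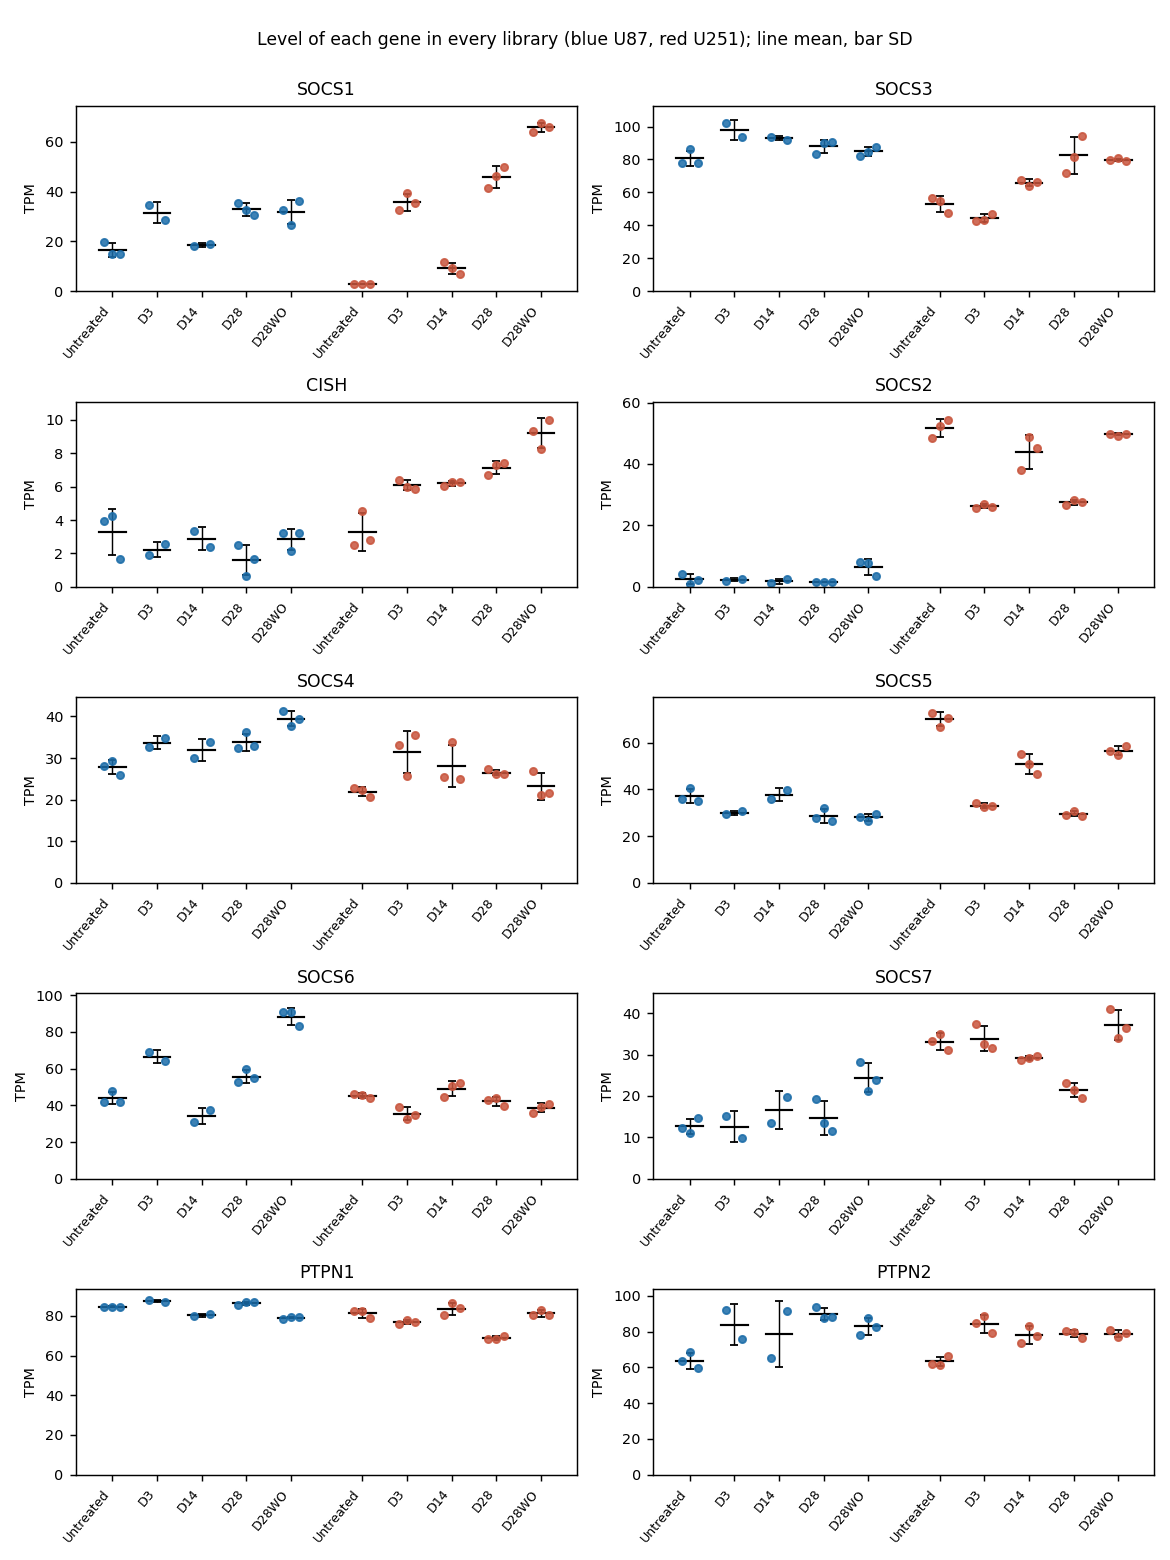
Level of each member in every library, in TPM on linear axes from 0, with U87 in blue and U251 in red and the 5 groups of each line side by side. Points are libraries, horizontal lines group means and bars SD over 2 or 3 libraries. SOCS1 in U251 stands at 2.79 to 2.84 TPM in Untreated and at 63.8 to 67.7 TPM in D28WO.

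**Figure D2:**
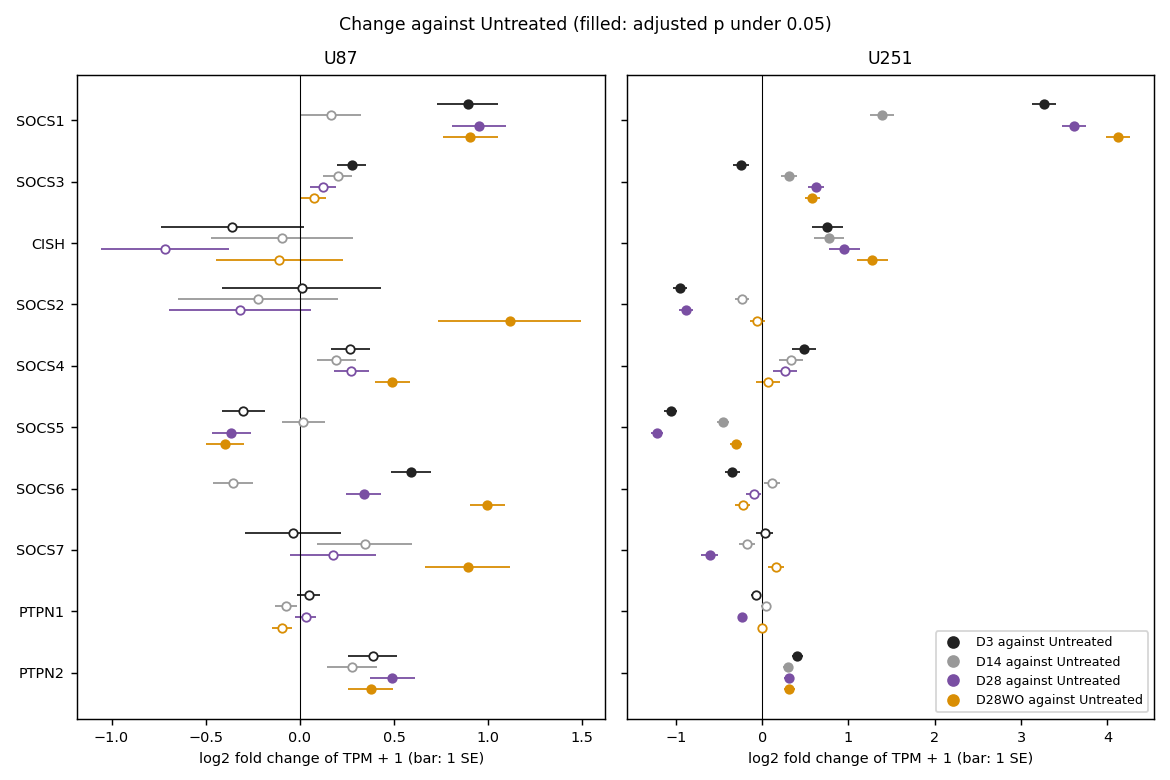
Log2 fold change of TPM + 1 against Untreated for each member, with U87 on the left and U251 on the right on axes of different range. Bars are 1 SE, and filled points have an adjusted p under 0.05. SOCS1 in U251 reaches 3.26, 1.39, 3.61 and 4.13 at D3, D14, D28 and D28WO, and SOCS2 and SOCS5 lie to the left of 0 at D3 and D28 in that line.

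SOCS1, the member that inhibits JAK kinases downstream of the IFN-γ receptor, lies on chromosome 16 at 11254417-11256204 of GRCh38 (minus strand). In U251 it was at 2.79, 2.84 and 2.84 TPM in Untreated, at 32.5, 39.3 and 35.5 in D3, at 11.5, 9.13 and 6.94 in D14, at 41.3, 46.1 and 49.9 in D28, and at 63.8, 67.7 and 65.8 in D28WO. Every treated library lay above every Untreated one, and D14 lay between Untreated and all other groups. Against Untreated the log2 fold change reached 3.26 at D3 (SE 0.14, limma adjusted p = 6.67e-10), 1.39 at D14 (adjusted p = 1.36e-05), 3.61 at D28 (adjusted p = 2.02e-10) and 4.13 at D28WO (adjusted p = 6.25e-11). Between successive times it fell by 1.87 from D3 to D14 (adjusted p = 6.33e-07) and rose by 2.22 from D14 to D28 (adjusted p = 1.35e-07). In the libraries labelled D28WO it was higher than in D28 by 0.52 (adjusted p = 0.0138). That difference was 0.45 with an adjusted p of 0.0579 without D28 replicate 1.

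In U87, SOCS1 was at 19.8, 15 and 15 TPM in Untreated. It was at 34.5 and 28.5 TPM in D3, 18 and 19.1 in D14, 35.5, 32.4 and 30.4 in D28, and 32.7, 26.7 and 36.3 in D28WO. The D3, D28 and D28WO libraries all lay above Untreated, and the D14 libraries lay within its range. The log2 fold change was 0.89 at D3 (SE 0.16, limma adjusted p = 0.00414), 0.95 at D28 (adjusted p = 9.37e-04) and 0.91 at D28WO (adjusted p = 4.45e-04), or 0.69, 0.76 and 0.65 after the median of all genes was subtracted. From D3 to D14 it fell by 0.73 (adjusted p = 0.0397), and from D14 to D28 it rose by 0.79 (adjusted p = 0.0179). Without D3 replicate 2 the value at D3 was 0.76 with an adjusted p of 0.0625, and with only D3 and Untreated in the fit the adjusted p was 0.0700. The fall to D14 was not called without any one of 6 libraries (D3 and D14 replicates 2 and 3, D28 replicate 2, D28WO replicate 1; adjusted p 0.0563 to 0.244), nor the rise to D28 without D14 replicate 2 or 3 or D28 replicate 1 (0.0611 to 0.146).

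**Figure D3:**
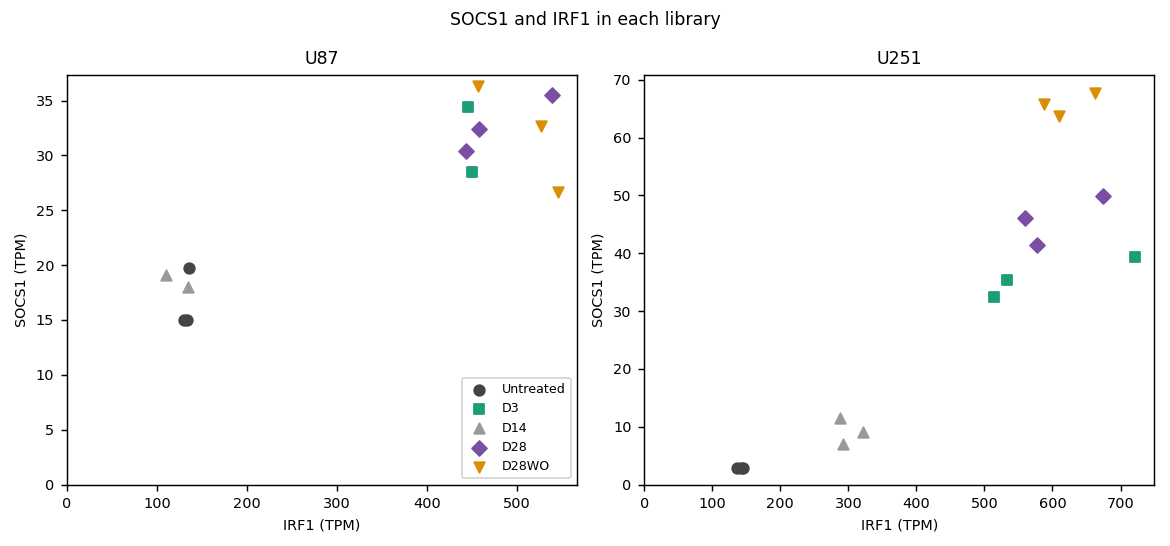
SOCS1 against IRF1 in each library, both in TPM on linear axes, with U87 on the left and U251 on the right and 1 symbol per group. In U87 the D14 libraries lie beside Untreated on both axes, and in U251 they lie between Untreated and the other groups.

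The level of SOCS1 was set beside that of IRF1, an interferon regulatory factor induced by IFN-γ. In U251, IRF1 was at 137 to 145 TPM in Untreated, 287 to 321 in D14, and 514 to 721 in D3, D28 and D28WO. These last 3 groups overlapped in IRF1, whereas SOCS1 did not overlap between D28WO (63.8 TPM or more) and D28 (49.9 TPM or less). In U87, IRF1 was at 130 to 136 TPM in Untreated, at 110 to 134 in D14, and at 443 to 545 in the other groups.

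SOCS3, which inhibits JAK kinases mainly at receptors that contain gp130, was called higher in U87 and lower in U251 at D3. U87 held it at 77.9, 86.2 and 78.2 TPM in Untreated, 102 and 93.6 in D3, 93.8 and 92.0 in D14, 83.4, 90.1 and 90.6 in D28, and 82.4, 84.8 and 87.5 in D28WO. Only the D3 difference passed the test among the 4 against Untreated, at 0.28 (SE 0.08, limma adjusted p = 0.0312). It was 0.08 after the median of all genes was subtracted (adjusted p = 0.541), and it was not called without Untreated replicate 1 or 3 or D3 replicate 2 (adjusted p 0.0787 to 0.22), nor without the D14 and D28WO libraries together (0.0940). In U251, SOCS3 was at 56.8, 55.0 and 47.4 TPM in Untreated, 42.9, 43.5 and 47.1 in D3, 67.5, 63.7 and 66.5 in D14, 71.8, 81.6 and 94.1 in D28, and 79.4, 80.7 and 79.0 in D28WO. It thus lay below Untreated at D3 and above it at each later time, without overlap. On the log2 scale the difference was -0.25 at D3 (adjusted p = 0.0454), 0.31 at D14 (adjusted p = 0.0268), 0.62 at D28 (adjusted p = 9.75e-05) and 0.58 at D28WO (adjusted p = 2.81e-04). The rise from D3 to D14 was 0.56 (adjusted p = 5.51e-04) and that from D14 to D28 was 0.31 (adjusted p = 0.0269). Leaving out single libraries ended the call at D3 for 11 of the 15 (adjusted p 0.0532 to 0.154), the exceptions being Untreated replicate 3, D3 replicate 3 and D28 replicates 1 and 3, and without D14 and D28WO together its adjusted p was 0.109. The call at D14 was lost without Untreated replicate 3 or D14 replicate 1 or 3 (0.0744 to 0.116). It was also lost under quantile normalization (0.0906), with size factors (0.101) and with the median of all genes subtracted (0.116). The call from D14 to D28 was lost without D14 replicate 2 or 3 or D28 replicate 2 or 3 (0.0607 to 0.117). It was also lost with the median subtracted (0.0505) and with 2 groups per fit (0.0907).

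CISH, which acts in cells stimulated through STAT5, was a low transcript in both lines. In U251 it was at 2.48, 4.56 and 2.82 TPM in Untreated, 6.40, 5.998 and 5.88 in D3, 6.03, 6.29 and 6.26 in D14, 6.68, 7.31 and 7.41 in D28, and 9.35, 8.26 and 10.0 in D28WO. All 12 libraries of the other groups lay above Untreated, and D28WO lay above the rest. CISH differed from Untreated by a log2 fold change of 0.76 at D3 (SE 0.18, limma adjusted p = 0.0035), 0.78 at D14 (adjusted p = 0.00663), 0.95 at D28 (adjusted p = 6.74e-04) and 1.28 at D28WO (adjusted p = 9.35e-05). Unlike SOCS1, it showed no call between D3 and D14 or between D14 and D28. Under quantile normalization the first 3 values were 0.43, 0.52 and 0.46, with adjusted p of 0.0758, 0.0603 and 0.0575. In U87, CISH lay between 0.683 and 4.22 TPM in every library, with group means of 3.29 ± 1.38 in Untreated, 2.23 ± 0.462 in D3, 2.88 ± 0.675 in D14, 1.62 ± 0.910 in D28 and 2.85 ± 0.635 in D28WO (SD, n = 3, 2, 2, 3 and 3), and no comparison was called.

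SOCS2, which restrains growth hormone signaling, stood at different Untreated levels in the lines, each of which has its own table, so that the levels were not compared by a test. U251 held it at 48.4, 52.4 and 54.3 TPM in Untreated, 25.8, 26.9 and 25.9 in D3, 38.0, 48.9 and 45.1 in D14, 26.7, 28.3 and 27.6 in D28, and 49.9, 49.2 and 49.9 in D28WO. The D3 and D28 libraries lay at about the same low level, and those of D14 and D28WO near Untreated. Against Untreated the values were -0.95 (log2) at D3 (SE 0.09, limma adjusted p = 1.03e-06) and -0.88 at D28 (adjusted p = 1.97e-06). From D3 to D14 the level rose by 0.72 (adjusted p = 4e-05), from D14 to D28 it fell by 0.65 (adjusted p = 9.98e-05), and D28WO was above D28 by 0.83 (adjusted p = 9.76e-06). In U87, SOCS2 was at 1.02 to 4.36 TPM in Untreated, D3, D14 and D28. At D28WO it was at 8.14, 7.94 and 3.49 TPM, of which the lowest overlapped Untreated. That difference was 1.11 (SE 0.38, adjusted p = 0.0334), and that from D28 was 1.43 (adjusted p = 0.0220). The first was not called without Untreated replicate 2 or 3 or D28WO replicate 1 or 2 (values 0.76 to 1.12, adjusted p 0.0741 to 0.129) or under quantile normalization (0.54, adjusted p = 0.32), and the second without any one D28 library or D28WO replicate 1 or 2 (adjusted p 0.0528 to 0.0919).

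SOCS5, which has been linked to interleukin-4 and growth factor receptors, was lower than in Untreated at every time in U251 and at D28 and D28WO in U87. In U251 it was at 72.9, 66.7 and 70.7 TPM in Untreated, 34.1, 32.3 and 32.8 in D3, 55.2, 50.9 and 46.5 in D14, 29.2, 30.7 and 28.8 in D28, and 56.3, 54.7 and 58.6 in D28WO. Every other group lay below Untreated, with D14 and D28WO between Untreated and the low pair of D3 and D28. The log2 fold change was -1.06 at D3 (SE 0.07, limma adjusted p = 6.16e-08), -0.46 at D14 (adjusted p = 5.08e-04), -1.22 at D28 (adjusted p = 1.4e-08) and -0.30 at D28WO (adjusted p = 0.00558). D28WO exceeded D28 by 0.91 (adjusted p = 9.14e-07). In U87, SOCS5 was at 36.0, 40.7 and 35.1 TPM in Untreated, 29.4 and 30.7 in D3, 35.8 and 39.6 in D14, 27.6, 32.1 and 26.6 in D28, and 28.1, 26.5 and 29.3 in D28WO. All groups but D14 lay below Untreated without overlap. The difference was -0.36 at D28 (SE 0.10, adjusted p = 0.0248) and -0.40 at D28WO (adjusted p = 0.00831), while at D3 it was -0.30 and was not called (adjusted p = 0.0935). Once the median of all genes was subtracted, the D3 value was -0.50 with an adjusted p of 0.0102. The call at D28 was lost without Untreated replicate 2 or D28 replicate 1 or 3 (adjusted p 0.0679 to 0.0789), and without the D14 and D28WO libraries its adjusted p was 0.0657.

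SOCS4, a close relative of SOCS5, was at 28.1, 29.3 and 26.0 TPM in U87 Untreated and at 41.4, 37.8 and 39.3 in D28WO, with 30.1 to 36.2 in the groups between. The D28WO difference was 0.49 (SE 0.09, limma adjusted p = 0.00123) and 0.24 after the median was subtracted (adjusted p = 0.0576). In U251 it was at 22.7, 22.4 and 20.7 TPM in Untreated and at 33.0, 25.7 and 35.4 in D3, a difference of 0.49 (adjusted p = 0.0127), and it lay between 21.2 and 33.9 TPM in the other groups. Without D3 replicate 3 the U251 value was 0.39 with an adjusted p of 0.0582, and once the median was subtracted it was 0.36 with an adjusted p of 0.0580.

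SOCS6, which acts on receptor tyrosine kinases such as KIT, spanned the widest range of TPM among the members in U87. It was at 41.9, 47.8 and 42.0 TPM in Untreated, 69.0 and 64.0 in D3, 31.0 and 37.4 in D14, 52.7, 59.9 and 54.6 in D28, and 91.1, 91.1 and 83.1 in D28WO. None of these groups overlapped another, and D14 lay below Untreated. The log2 fold change was 0.59 at D3 (SE 0.10, limma adjusted p = 0.00357), 0.34 at D28 (adjusted p = 0.0236) and 1.00 at D28WO (adjusted p = 1.03e-05). At D14 it was -0.35 with an adjusted p of 0.0736, and -0.50 with an adjusted p of 0.0193 once the median of all genes was subtracted. The D28 call was lost after that subtraction (0.15, adjusted p = 0.296) and without Untreated replicate 1 or 3 or D28 replicate 2 (0.0703 to 0.0862). From D3 to D14 the level fell by 0.94 (adjusted p = 5.01e-04), and from D14 to D28 it rose by 0.69 (adjusted p = 0.00237). The D28WO libraries exceeded D28 by 0.66 (adjusted p = 8.55e-04) and D3 by 0.41 (adjusted p = 0.0306), where 5.44% of all genes were called higher in D28WO than in D3. In U251, SOCS6 was at 46.3, 45.7 and 43.9 TPM in Untreated, 39.2, 32.3 and 34.9 in D3, 44.6, 50.7 and 52.2 in D14, 43.2, 44.3 and 39.5 in D28, and 36.0, 39.1 and 40.8 in D28WO. Here D3 had the lowest mean and lay below Untreated (log2 fold change -0.35, adjusted p = 0.0061), and D14 had the highest mean and overlapped Untreated. D28WO lay below Untreated without overlap (-0.22), which was not called (limma adjusted p = 0.0766). It was called with quantile normalization, size factors, library weights and 2 groups per fit (adjusted p 0.0377 to 0.0487).

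SOCS7, which binds signaling adaptors and can move between cytoplasm and nucleus, rose at a single time in U87. It was at 12.3, 11.1 and 14.7 TPM in Untreated and 28.3, 21.2 and 23.9 in D28WO, and at 9.90 to 19.8 in the other groups. Only D28WO lay clear of Untreated and D28, with log2 fold changes of 0.89 (SE 0.23, limma adjusted p = 0.00795) and 0.71 (adjusted p = 0.0479). The second was not called without any one of 8 libraries, which were all 6 of Untreated and D28WO and D28 replicates 2 and 3 (adjusted p 0.0512 to 0.169), and the first not under quantile normalization (0.47, adjusted p = 0.147). In U251 the low group was D28, at 23.1, 21.5 and 19.6 TPM against 33.4, 35.0 and 31.0 in Untreated, a difference of -0.61 (adjusted p = 1.72e-04). The remaining libraries lay at 37.3, 32.6 and 31.6 TPM in D3, 28.7, 29.1 and 29.6 in D14, and 41.0, 34 and 36.4 in D28WO, and D28WO exceeded D28 by 0.77 (adjusted p = 4.97e-05).

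PTPN1, which dephosphorylates JAK2 and TYK2, was the member with small changes throughout. In U87 it was at 84.3, 84.7 and 84.7 TPM in Untreated, 87.8 and 87.1 in D3, 79.8 and 80.8 in D14, 85.5, 86.8 and 86.9 in D28, and 78.7, 79.4 and 79.3 in D28WO. These groups separated by a few TPM with little spread, but none was called against Untreated. Its log2 fold change at D3 was 0.05 (95% interval -0.08 to 0.18) and at D28 0.03 (-0.09 to 0.15), and both turned negative, to -0.15 and -0.16, once the median of all genes was subtracted. At D28WO it was -0.10 (limma adjusted p = 0.179), and -0.35 with an adjusted p of 2.9e-04 after that subtraction. In U251, PTPN1 was at 82.5, 82.4 and 78.8 TPM in Untreated, 76.0, 78.0 and 77.0 in D3, 80.5, 86.3 and 83.8 in D14, 68.2, 68.3 and 69.8 in D28, and 80.3, 83.2 and 80.2 in D28WO. D28 was the lowest group, below Untreated by 0.24 (log2 fold change -0.24, SE 0.05, adjusted p = 0.00153), and D28WO was above D28 by 0.24 (adjusted p = 0.00245). The D3 value of -0.08 was not called (adjusted p = 0.238), but was -0.21 with an adjusted p of 0.00386 after the median was subtracted.

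PTPN2, the phosphatase related to PTPN1, was higher than in Untreated at every time in U251 and at D28 and D28WO in U87. U251 held it at 62.2, 61.6 and 66.2 TPM in Untreated, 85, 89.0 and 79.0 in D3, 73.5, 83.4 and 77.8 in D14, 80.1, 79.6 and 76.6 in D28, and 80.7, 76.8 and 79.4 in D28WO. All groups lay above Untreated without overlap, and their own ranges overlapped one another. The log2 fold change was 0.41 (SE 0.06, limma adjusted p = 1.53e-04), 0.30 (adjusted p = 0.00406), 0.31 (adjusted p = 0.00133) and 0.31 (adjusted p = 0.00188) in that order of time. At D28 it was 0.15 with an adjusted p of 0.0797 after the median of all genes was subtracted, and at D14 it was 0.21 with an adjusted p of 0.0624 with size factors. In U87, PTPN2 was at 63.5, 68.5 and 59.4 TPM in Untreated, 92.2 and 75.7 in D3, 65.5 and 91.5 in D14, 93.8, 87.9 and 88.3 in D28, and 78.4, 87.9 and 82.9 in D28WO. The 2 libraries of D14 were far apart, and the lower lay within Untreated. The difference was 0.49 at D28 (SE 0.12, adjusted p = 0.0120) and 0.38 at D28WO (adjusted p = 0.0230), and 0.30 (adjusted p = 0.0861) and 0.12 (adjusted p = 0.441) once the median was subtracted. The call at D28WO was also lost without Untreated replicate 1 or 3 or D28WO replicate 2 or 3 (0.0540 to 0.0808).

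Between successive groups, the 2 calls of U87 from D3 to D14 were both lower (SOCS1 and SOCS6), where 1.47% of genes were higher and 3.32% lower, and the 2 from D14 to D28 were both higher (the same pair of genes), where 2.94% and 1.12% were called. D28 and D28WO are arms of the same day, so values from D28 to D28WO compare the arms and are no change over time. In D28WO, 3 members of U87 were higher than in D28 (SOCS2, SOCS6 and SOCS7) and none lower (4 and 1 at an unadjusted p under 0.05). Among all genes, 9.9% were higher and 8.44% lower. In U251, SOCS1 was lower and SOCS2, SOCS3, SOCS5 and SOCS6 were higher in D14 than in D3, beside 12.8% of genes higher and 12.6% lower. From D14 to D28, SOCS1 and SOCS3 were higher and SOCS2, SOCS5, SOCS7 and PTPN1 lower, beside 11.3% and 9.48%. In U251, 5 members were higher in the libraries labelled D28WO than in D28 (SOCS1, SOCS2, SOCS5, SOCS7 and PTPN1) and none lower (also at an unadjusted p under 0.05), whereas among all genes 10.3% were higher and 18.8% lower. The median log2 fold change from D28 to D28WO was 0.28 over the members and -0.12 over all genes of U251.

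In the order of group means of U251, SOCS1 was highest in D28WO, followed by D28, D3, D14 and Untreated. Each step was called except that from D28 to D3 (adjusted p = 0.118 by limma), whose libraries did not overlap. SOCS3 was highest in D28 and D28WO, whose libraries overlapped, followed by D14, Untreated and D3, and D28WO against D14 was called (0.27, limma adjusted p = 0.0428, beside 10.6% of genes). In U87 the SOCS1 libraries of D28, D28WO and D3 overlapped, as did those of D14 and Untreated, and the step between these blocks was called. For SOCS3, SOCS4, SOCS5, SOCS7, CISH, PTPN1 and PTPN2 of U87 and for SOCS4 and SOCS6 of U251, no step between neighbours in the order was called, which does not show that their levels were equal.

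Across genes, TPM allows levels to be compared per length. The tables are named as TPM, but a supplementary sheet of the study describes CPM, which is not scaled by length. At most 19 genes of a library shared 1 value above 0, out of 24223 or more, so the values do not step by single reads as CPM of whole reads would. CPM of estimated counts was not tested, and in that case the order, sums and shares given next would not be per length. In U87 Untreated the highest members were PTPN1 (84.6 TPM), SOCS3 (80.7) and PTPN2 (63.8), and the lowest were CISH (3.29) and SOCS2 (2.57). In U251 Untreated they were PTPN1 (81.2), SOCS5 (70.1) and PTPN2 (63.3), with CISH (3.29) and SOCS1 (2.82) at the bottom. The sum over SOCS1 to SOCS7 and CISH in U87 was 225 ± 10.2 TPM in Untreated, 277 ± 14.3 in D3, 237 ± 14.0 in D14, 257 ± 8.61 in D28 and 307 ± 8.55 in D28WO (SD). In U251 it was 281 ± 6.67, 246 ± 6.68, 283 ± 8.67, 283 ± 12.2 and 360 ± 4.31 TPM in the same order, so that D28WO was highest in both lines and its libraries did not overlap those of any other group. Within this sum, SOCS1 of U251 went from 1.00% ± 0.03 in Untreated to 14.5% ± 1.8 in D3, 3.25% ± 0.84 in D14, 16.2% ± 0.84 in D28 and 18.3% ± 0.75 in D28WO, and SOCS5 from 24.9% ± 1.3 to 13.4% ± 0.24, 18% ± 1.7, 10.5% ± 0.56 and 15.7% ± 0.42. In U87, SOCS3 held 35.9% ± 1.0 in Untreated, 35.4% ± 0.42 in D3, 39.3% ± 2.9 in D14, 34.3% ± 1.8 in D28 and 27.7% ± 1.4 in D28WO, where SOCS6 held 28.9% ± 1.7 and the libraries did not all place them in the same order.

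**Figure D4:**
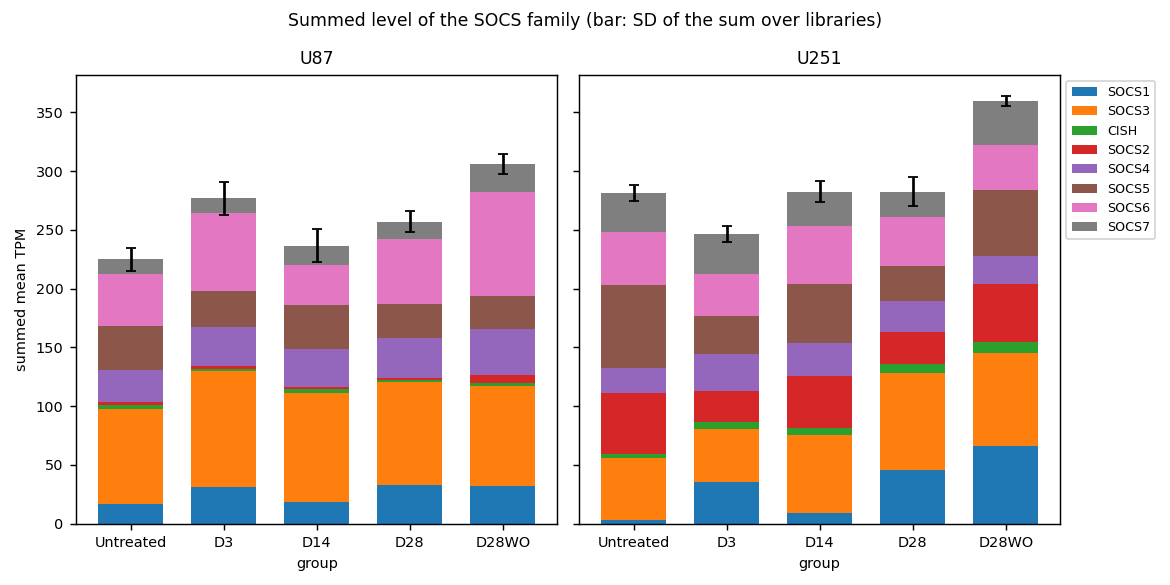
Summed mean level of the 8 SOCS family members in each group, in TPM from 0, with U87 on the left and U251 on the right. Colours are members, and bars are the SD of the sum over libraries. The sum is 225 and 281 TPM in Untreated and 307 and 360 TPM in D28WO, and the SOCS1 segment of U251 is thin in Untreated and D14 and thick in D3, D28 and D28WO.

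Other genes of the pathway were counted from lists against Untreated, and nothing particular to a list is read from its count. Of the IFN-γ receptor chains and their kinases (IFNGR1, IFNGR2, JAK1 and JAK2), 2 were higher and 1 lower in U87 at D3, 3 and 1 at D28, and 3 and 0 at D28WO. At D14 limma called none of the 4 (3 were higher at an unadjusted p under 0.05). In U251, 1 was higher and 2 lower at D3 and at D28, 1 was lower at D14, and 1 was higher and 1 lower at D28WO. Among all genes, D28 had 17.2% higher and 6.55% lower in U87 and 25.9% and 14.7% in U251. JAK2, a kinase that SOCS1 inhibits, reached a log2 fold change of 1.59 at D28WO in U87 (55.4 ± 4.40 against 17.9 ± 4.25 TPM) and 2.53 at D3 in U251 (59.5 ± 4.36 against 9.93 ± 4.07 TPM). IFNGR2, the signaling chain, was called lower at D3 and D28 in U87, where the D28 value was -0.51, and at D3, D28 and D28WO in U251, where the D3 value was -0.69. In U87 its D14 value was 0.22 and its D28WO value -0.07, neither of which was called. Of the remaining kinases, JAK3 was higher in U87 by up to 1.76 and TYK2 in U251 by up to 0.33.

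Of 9 other negative regulators, 8 were tested, of which 1 was higher and 1 lower in U87 at D28 and 3 were higher and 3 lower in U251, beside the shares of all genes just given. USP18, which restrains the type I interferon receptor, rose in U251 from 24.3 ± 2.76 to 95.4 ± 5.97 TPM at D28 (log2 fold change 1.93) and in U87 from 31.5 ± 5.44 to 45.0 ± 2.99 TPM (0.51). SH2B3, an adaptor that inhibits JAK2, was lower in U87 at D28 (-0.41) and higher in U251 (0.81). The SOCS box needs elongins, CUL5 and its partners, and of these 5 genes 2 were lower in U87 at D28 (ELOB and ELOC) and 2 higher in U251 (ELOC and ARIH2). CUL5 had the largest called change of the list, 0.63 in U87 at D28WO. Of 10 gp130 cytokines and receptors, upstream of STAT3 and thereby of SOCS3, 9 were tested, of which 1 was higher and 0 lower in U87 at D28, 5 and 2 at D28WO (where 28.6% of all genes were higher and 13.4% lower), and 2 higher and 5 lower in U251 at D28. IL6 rose in U87 by 2.84 at D28WO (53.9 to 391 TPM), and in U251 LIF fell by 2.22 at D3 and IL11 rose by 2.14 at D28. IL6R was lower in U87 at D28WO (-1.17) and in U251 at every time, with -1.95 at D28. Of 5 receptors that use STAT5, 1 was higher in U87 and 3 in U251 at D28. PRLR rose by 1.67 and EPOR by 0.86 in U251 at D28, and IL7R rose by 1.59 at D14 and fell by 1.77 at D28WO.

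Genes most like a member were those with the highest Pearson r of log2(TPM + 1) over the libraries of a line, given as a description, since libraries of a group lie together. For SOCS1 in U251 (15 libraries) these were C1R (0.993), NMI (0.990) and HLA-B (0.989), and in U87 (13 libraries) IL15RA (0.968), RHBDF2 (0.965) and ISG20 (0.964). For CISH they were TRIM14 (0.933), IFITM1 (0.933) and ZC3HAV1 (0.925) in U251, and AK5 (0.903), FAM87A (0.847) and FAM177A1 (0.824) in U87. SOCS2 was closest to PGM2L1 (0.973), SORT1 (0.969) and FAM20C (0.969) in U251 and to KRT86 (0.929), LCN1 (0.908) and EMC2 (0.908) in U87. For SOCS3 the closest were LCIIAR (0.915), HES1 (0.892) and COL4A1 (0.875) in U251, and ZNF516-DT (0.952), ENSG00000278934 (0.896) and NABP1 (0.883) in U87. For each of these members the lines named different genes.

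Neighbouring and overlapping genes were described because reads of overlapping exons could be counted for either gene. SOCS1 lies inside RMI2, on the other strand, with no shared exon bases. RMI2 was at 25.9 ± 1.03 TPM in U251 Untreated and 61.1 ± 2.71 in D28 (log2 fold change 1.21), against 3.61 for SOCS1. CIITA, the regulator of HLA class II genes near SOCS1, rose by 5.54 at D3 and D28 in U251 and by 2.14 at D28WO in U87, and DEXI fell by 1.33 at D3 in U251. CISH shares 218 exon bases (4.3%) with MAPKAPK3 on the opposite strand, and no comparison of MAPKAPK3 with Untreated was called in U251, where it was at 64.5 ± 6.63 TPM in Untreated and 51.5 ± 5.01, 57.6 ± 6.23, 53.8 ± 9.15 and 49.9 ± 7.77 in D3, D14, D28 and D28WO. SOCS2 shares 277 exon bases (4.3%) with SOCS2-AS1, an antisense transcript that was also called lower at D3 (-0.93) and D28 (-1.08) in U251, and at D28WO too (-0.56), with levels of 23.9 ± 4.62 TPM in Untreated, 12.1 ± 2.66 in D3, 25.4 ± 3.24 in D14, 10.7 ± 1.74 in D28 and 15.9 ± 2.43 in D28WO. Reads of these 2 transcripts cannot be told apart in the shared bases without strand. SOCS5 shares 160 bases (2.1%) with LINC01118, and PTPN1 shares 138 (3.4%) with a noncoding transcript.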

How the data were processed

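RNA-seq libraries of U87 and U251 were compared within each line. According to the methods and the submitters' processing notes, reads were checked with FastQC 0.11.9, trimmed with Trim Galore 0.6.6, aligned to GRCh38 with STAR 2.7.10a and counted with featureCounts 2.0.3. The authors deposited 1 table of TPM values (scaled by gene length and library total) per line. How TPM was computed, and whether counting used strand, is not given in the sources used here. TPM keeps no depth, so no counting interval could be given. Columns were assigned by library name, and 2 U87 columns that carry 1 name between them were not used.

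Values were tested as log2(TPM + 1) with limma 3.58.1 in R 4.3.3 (lmFit, eBayes with trend), with 5 groups of a line in 1 fit. Genes were kept if their mean over a line reached 0.5 TPM, and p-values were adjusted by Benjamini-Hochberg over all of them. Fold changes on this scale understate those of genes with low values. Replicates are independent cultures according to the methods. The procedure was tested on simulated data. Described genes are the 10 members, up to 3 called genes with the largest change per pathway list and line, and the 3 genes most like SOCS1, SOCS2, SOCS3 and CISH. Genes overlapping a member, and interferon readouts beyond that limit, were added after their values were seen. The members and lists were chosen with earlier results of these data known. Gene positions come from GENCODE 44 on GRCh38, and promoter sequences from RefSeq on GRCh38.p14. Alternatives were a pseudocount of 0.1, no filter, a filter at 1 TPM, quantile normalization, size factors, 2 groups per fit, the replicate number as a block, library weights and leaving out each library. Subtracting the median of all genes, and leaving out D14 and D28WO together, were added after the data were seen. The list of STAT genes is not reported here.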

Additional observations from a re-analysis of the deposited data

Results flagged for a closer look

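Over all 10 pairs of groups, 18 comparisons of SOCS3, SOCS5, SOCS6 and PTPN1 had opposite sides, in that every library of the first group lay on one side of the second group in U87 and on the other side in U251. The difference between the lines was not tested in any of them, since each line has its own table. How often other genes meet this rule was not counted, so nothing about the members is read from these counts. Values are the log2 fold change of U87 minus that of U251, followed by both values. Both lines passed the limma test in 4: SOCS6 from D14 to D28WO (1.69, from 1.35 and -0.34), SOCS3 at D3 (0.52, from 0.28 and -0.25), SOCS6 at D3 (0.94, from 0.59 and -0.35) and SOCS6 from D3 to D14 (-1.41, from -0.94 and 0.46). In the next 10, 1 line passed and the other did not. For SOCS6 the U251 value was not called at D28WO (1.22, from 1.00 and -0.22, adjusted p = 0.0766 in U251) and from D14 to D28 (0.90, from 0.69 and -0.21, adjusted p = 0.113 in U251). Under some other settings the SOCS6 value of U251 at D28WO was called (limma adjusted p 0.0377 to 0.0487). In U87 the value was not called for SOCS3 from D14 to D28 (-0.39, from -0.08 and 0.31, adjusted p = 0.665 in U87). Nor was it for PTPN1 at D28 (0.27, from 0.03 and -0.24, adjusted p = 0.725 in U87), from D14 to D28 (0.38, from 0.10 and -0.28, adjusted p = 0.42 in U87) and from D28 to D28WO (-0.36, from -0.13 and 0.24, adjusted p = 0.135 in U87). From D3 to D28 and to D28WO, SOCS3 was not called in U87 (-1.02, from -0.15 and 0.87, adjusted p = 0.611 in U87, and -1.03, from -0.20 and 0.83, adjusted p = 0.12 in U87). From D14 to D28WO it was not called there either (-0.40, from -0.13 and 0.27, adjusted p = 0.253 in U87), nor was SOCS5 from D3 to D28WO (-0.85, from -0.10 and 0.76, adjusted p = 0.653 in U87). Neither line passed for SOCS6 from D3 to D28 (-0.50, from -0.25 and 0.25, adjusted p of 0.518 and 0.076), for PTPN1 from D3 to D28WO (-0.22, from -0.14 and 0.08, adjusted p of 0.165 and 0.304), and for PTPN1 at D3 (0.12, from 0.05 and -0.08, adjusted p of 0.628 and 0.238) and from D3 to D14 (-0.24, from -0.12 and 0.12, adjusted p of 0.371 and 0.1). The PTPN1 values of U87 at D3 and D28 changed sign under other scalings, given among the results that depend on the processing. With quantile normalization the PTPN1 value of U87 from D28 to D28WO was called (-0.1612, limma adjusted p = 0.0379). That of U251 at D3 was called with size factors (adjusted p = 0.0164) and with the median of all genes subtracted (0.00386). The pairs D3 and D28, D3 and D28WO, and D14 and D28WO were not recomputed under the other settings.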

How the results depend on the processing

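Scaling moved the median of all genes by over 0.1 in both lines: at D28WO in U87 it was 0.25 as reported, 0.07 with size factors and 0.00 with quantile normalization, and at D28 in U251 it was 0.16, 0.07 and 0.00. PTPN1 in U87 turned negative at D3 with size factors (-0.1483) and with the median subtracted (-0.1505), and at D28 with quantile normalization (-0.0066), size factors (-0.1613) and the median subtracted (-0.1592). The number of members called in U87 went from 3 to 1 at D3, from 4 to 2 at D28, from 2 to 0 from D3 to D14 and from 2 to 0 from D14 to D28 when only the compared groups were fitted, a fit with fewer libraries. At D14 it went from 0 to 1 with quantile normalization, 1 with size factors and 2 with the median subtracted, all lower. At D28 it was 2 with size factors and 2 with the median subtracted, and at D28WO 4 in place of 7 with quantile normalization. Without a filter it was 1 in place of 2 from D3 to D14 and 1 in place of 3 from D28 to D28WO, with more genes tested. The cause of the other moves was not tested. Leaving out 1 library gave 1 to 4 members at D3, 3 to 4 at D28, 5 to 7 at D28WO, 1 to 2 from D3 to D14, 1 to 2 from D14 to D28 and 1 to 3 from D28 to D28WO in U87. In U251 it gave 7 to 8, 4 to 6, 8 and 5 at D3, D14, D28 and D28WO. For D14 against D3, D28 against D14 and D28WO against D28 it gave 5, 5 to 6 and 4 to 5. No count of U251 moved by over 1.5 times under any alternative. Replicate numbers did not pair the libraries, since deviations of the same number correlated between -0.06 and 0.05 in U87 and between -0.04 and 0.05 in U251. With the replicate block, SOCS3 at D3 was 0.25 in U87 (limma adjusted p = 0.0556) and -0.25 in U251 (adjusted p = 0.0628), and SOCS7 from D28 to D28WO in U87 had an adjusted p of 0.0566; the block changed no other call and no count by over 1.5 times. TPM holds no depth, so no lowest detectable level can be given.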
